A study of Caenorhabditis elegans with 16 samples.

Results

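The pharynx is the feeding organ of Caenorhabditis elegans, and 8 genes of its muscle are described here in starved first-stage (L1) larvae. They are the myosin heavy chain genes myo-1, myo-2 and myo-5, the troponin genes tnc-2, tni-4 and tnt-4, and the transcription factor genes ceh-22 and pha-4. They were matched by symbol to the gene identifiers of the count files, which list 46911 genes, and all 8 were among the 14058 genes that passed the filter on low counts. Polyadenylated RNA of whole larvae was sequenced in 16 libraries, 4 for each of 4 genotypes. The triple mutant carried daf-2(e1370), irld-39(duk1) and irld-52(duk17) and came from a pair of independent lines, LRB457 (replicates 1 and 3) and LRB458 (replicates 1 and 4). The daf-2 mutant (strain CB1370) carried daf-2(e1370) alone, and the irld mutant (strain LRB444) carried only the irld-39(duk1) and irld-52(duk17) alleles. The wild type was strain N2. The insulin/IGF receptor of the worm is the product of daf-2, and irld genes code for proteins that resemble the ligand-binding part of insulin and EGF receptors. All larvae hatched in buffer with no food. They were taken at 12 hours from hatch, 24 hours from bleaching of the mothers, at 20 °C, and each library held 10000 larvae. Except for the triple mutant, each genotype was 1 strain.

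The pharyngeal muscles pump food from the mouth to the intestine and contract by the same sarcomere machinery as body wall muscle, but with their own set of proteins. Myosin heavy chains form the thick filaments, and MYO-1 and MYO-2 are the heavy chains specific to pharyngeal muscle, while UNC-54 and MYO-3 serve the body wall. Troponin C binds calcium, troponin I holds the thin filament off until calcium arrives, and troponin T ties the complex to tropomyosin. PHA-4, a FoxA factor, sets the identity of all pharyngeal cells, and CEH-22, an NK-2 homeodomain factor, activates myo-2 in pharyngeal muscle. In an arrested L1 larva the pharynx is fully formed, and no food reaches it.

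In the annotation used (Ensembl 115, build WBcel235), myo-1 lay on chromosome I (7258946 to 7267057, minus strand), myo-2 on chromosome X (12468061 to 12475348, plus strand) and myo-5 on chromosome V (8108970 to 8118131, plus strand). The troponin C gene tnc-2 lay on chromosome II (10466852 to 10468358, plus strand), the troponin I gene tni-4 on chromosome IV (5204591 to 5207124, plus strand) and the troponin T gene tnt-4 on chromosome V (1989471 to 1992918, minus strand). Both regulators lay on chromosome V, ceh-22 at 10671918 to 10675769 and pha-4 at 20753052 to 20760317, on the plus strand. Merged exons summed to 6296 to 6457 bases in the 3 myosin genes, 819 to 1366 bases in the 3 troponin genes, 2369 bases in ceh-22 and 2158 bases in pha-4. The strand setting of the counting is not given in the sources used here, so reads of antisense neighbours cannot be told apart from those of a member where their exons overlap. The exons of tnc-2 shared 157 bases with the antisense gene clec-143 (5 to 254 counts per library), those of ceh-22 shared 555 bases with the antisense noncoding RNA F29F11.19 (0 to 5 counts), and those of tni-4 shared 16 bases with the antisense gene Y59E9AL.36 (298 to 585 counts).

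The depth in gene counts lay between 14033534 and 24903552. Reads without a gene made up 40.4% to 42.4% of all reads. The counts of daf-2 ranged from 3649 to 10520 and were present in every group, and those of irld-39 and irld-52 did not exceed 12 in any library, so the counts do not check the genotype labels. Libraries stood apart within genotypes. On the first principal component of all tested genes, daf-2 replicates 2 and 4 (6.90 and 4.36) and the first LRB458 library (19.02) lay apart from the other 5 libraries with daf-2(e1370) (38.1 to 61.4), and the 8 libraries without that allele lay between -38.3 and -31.4. The wild-type libraries differed in the balance of short and long transcripts, with replicates 2 and 3 on one side and 1 and 4 on the other.

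The heavy chain genes of pharyngeal muscle differed up to 4.92-fold (myo-1) and 4.74-fold (myo-2) between libraries of 1 genotype, both in the daf-2 mutant. In CPM (counts scaled to library size with TMM factors), myo-2 stood at 1899 and 1847 in LRB457 and at 1031 and 1063 in LRB458, the lines of the triple mutant. In replicates 1 to 4 it stood at 671, 1653, 384 and 1824 CPM in the daf-2 mutant, at 707, 1169, 3271 and 2516 CPM in irld larvae and at 1461, 1810.0, 876 and 1799.7 CPM in wild-type larvae. The ranges of the 4 genotypes overlapped, and the highest and lowest libraries of all 16 were irld replicate 3 and daf-2 replicate 3. The second pharyngeal heavy chain gene, myo-1, followed myo-2 closely (r = 0.989 between their deviations from the group means, 16 libraries). It ranged from 831 to 1629 CPM in the triple mutant, from 316 to 1558 CPM in the daf-2 mutant, from 779 to 2604 CPM in the irld mutant and from 723 to 1392 CPM in the wild type. The third, myo-5, had 697 and 677 CPM in LRB457 and 413 and 369.8 CPM in LRB458. It had 232, 560.1, 159.6 and 566 CPM in daf-2 replicates 1 to 4, 519, 445, 1416 and 1024 CPM in the irld mutant, and 618, 437, 546 and 765 CPM in the wild type. Again the 2 LRB457 libraries, daf-2 replicates 2 and 4 and irld replicates 3 and 4 were the upper libraries of their genotypes.

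The troponin genes showed the same split inside the 3 mutant genotypes and another order in the wild type. The troponin I gene tni-4 had 125 and 129.6 CPM in LRB457 and 66.5 and 100.0 CPM in LRB458. It had 52.05, 109.8, 45.2 and 140.1 CPM in the daf-2 mutant, 78.8, 69.5, 181 and 139 CPM in the irld mutant, and 99.3, 149, 209 and 100.4 CPM in the wild type. Wild-type replicate 3 was thus the highest library of all for tni-4, while it was the lowest wild-type library for myo-1 and myo-2. The troponin C gene tnc-2 moved with tni-4 (r = 0.989, 16 libraries), with 26.5 to 50.9 CPM in the triple mutant, 16.2 to 50.5 CPM in the daf-2 mutant, 24.1 to 60.7 CPM in the irld mutant and 31.2 to 78.8 CPM in the wild type. The troponin T gene tnt-4 had 133 and 120.5 CPM in LRB457, and 75.9 and 86.6 CPM in LRB458. It had 52.2, 110.4, 31.4 and 125 CPM in the daf-2 mutant, 91.4, 71.5, 195 and 120.5 CPM in the irld mutant, and 97.9, 113, 128 and 114 CPM in the wild type. The highest daf-2 library was 3.98-fold above the lowest, against 1.30-fold in the wild type.

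The regulators pha-4 and ceh-22 differed in level and in spread. The FoxA gene pha-4 had 66.3 and 70.8 CPM in LRB457, and 56.2 and 61.3 CPM in LRB458. It had 48.4, 72.1, 44.9 and 67.4 CPM in the daf-2 mutant, 54.4, 54.5, 82.2 and 82.9 CPM in the irld mutant, and 61.6, 64.7, 45.4 and 67.8 CPM in the wild type. Its libraries differed by at most 1.61-fold within a genotype, and its upper pair in each mutant genotype was the same as for the myosins. The homeobox gene ceh-22 rested on 19 to 111 counts per library. It had 6.44 and 6.14 CPM in LRB457 and 4.22 and 4.28 CPM in LRB458. It had 3.49, 3.94, 1.23 and 5.69 CPM in the daf-2 mutant, 2.62, 2.89, 6.30 and 4.56 CPM in the irld mutant, and 4.29, 4.32, 5.05 and 2.29 CPM in the wild type. The highest wild-type library for ceh-22 was replicate 3 and the lowest was replicate 4, which was the highest for pha-4.

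**Figure D1:**
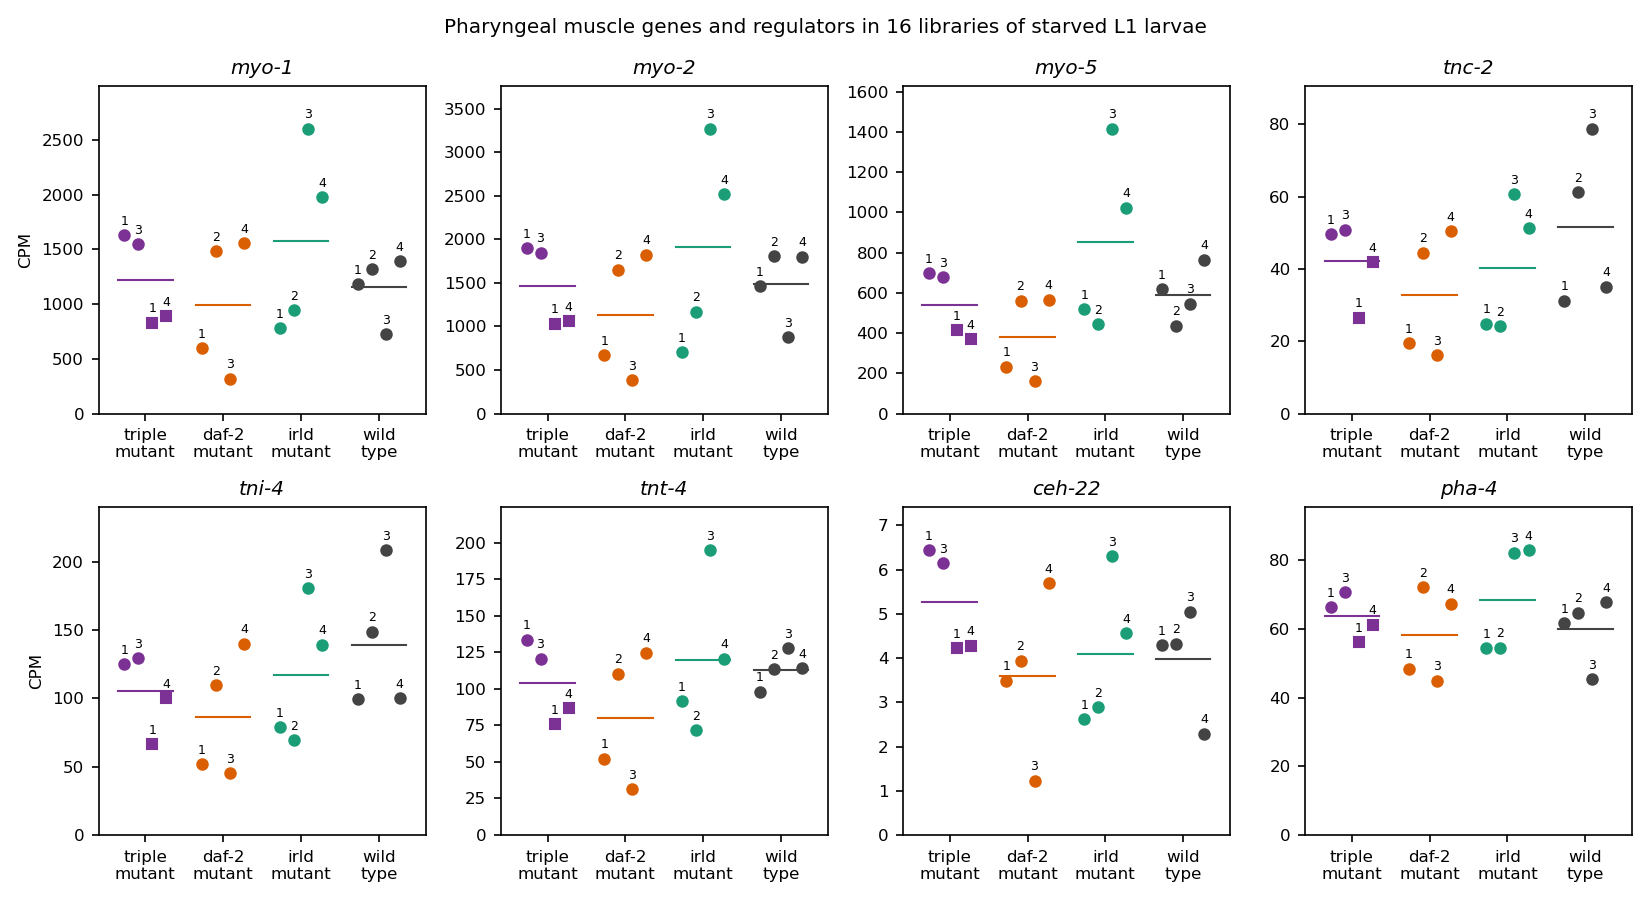
CPM of the 8 genes (y axes, each from 0) in the 16 libraries, with 1 point per library, replicate numbers above the points, group means as lines, and squares for LRB458. In the triple mutant, the daf-2 mutant and the irld mutant the same pair of libraries is on top in every panel, while the wild type has no such pair.

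Per kilobase of exon and over the 16 libraries, the levels ran in the order myo-2 (237 ± 117 CPM per kb), myo-1 (191 ± 89.1), tni-4 (137 ± 55.3), myo-5 (93.8 ± 47.9), tnt-4 (76.2 ± 27.5), tnc-2 (50.9 ± 21.3), pha-4 (29.0 ± 5.36) and ceh-22 (1.79 ± 0.631; SD, n = 16). Neighbours in this order differed by less than the larger of their SDs over libraries, except tnc-2 and pha-4, and pha-4 and ceh-22. Within a library the order was firmer: myo-2 was above myo-1 in 15 of 16 libraries, myo-1 above tni-4 in 14, tni-4 above myo-5 in 15, and myo-5 above tnt-4 in 11. The body wall heavy chain gene unc-54 stood at 2316 CPM per kb and myo-3 at 243 CPM per kb, so the level of the second body wall heavy chain was near that of myo-2.

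No member was called in any of the 7 contrasts fitted. The test was edgeR's quasi-likelihood test across all 14058 genes with Benjamini-Hochberg adjustment, a gene being called at an adjusted p under 0.05. Of the 8 members, 0 were called and 0 had an unadjusted p under 0.05 in each contrast, and DESeq2 also called 0 in each, with 1 unadjusted p under 0.05 in the contrast of libraries with and without daf-2(e1370). The ranges of the libraries overlapped for every member between each pair of groups compared. In bulk larvae a difference in the share of pharyngeal muscle cells and one in RNA per cell could not be told apart.

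In daf-2 larvae against wild-type larvae 15.7% of all tested genes were called. There the 8 members all had a negative log2 fold change, with a median of -0.45 beside -0.0030 over all tested genes. The members deviated together from their group means across libraries (median r = 0.817 over 28 pairs). Their shared sign thus does not stand for 8 separate results. The myosins averaged 989 ± 626 (myo-1), 1133 ± 712 (myo-2) and 379.6 ± 214 CPM (myo-5) in the daf-2 mutant, and 1155 ± 301, 1487 ± 438 and 592 ± 138 CPM in the wild type (SD, n = 4). The smallest adjusted p was that of tni-4, at 86.8 ± 45.9 CPM in the daf-2 mutant and 139 ± 51.7 CPM in the wild type, with a log2 fold change of -0.68 ± 0.40 (SE) and an adjusted p of 0.273 by edgeR. Its 95% interval ran from -1.54 to 0.18. That of pha-4 was narrower and ran from -0.43 to 0.35, around a log2 fold change of -0.04, with 58.2 ± 13.6 CPM in the daf-2 mutant and 59.9 ± 9.97 CPM in the wild type. A change of 1.5-fold in either direction was outside the interval for pha-4, while for the 7 other members such a change was inside it in at least 1 direction. The outcome moved with the libraries kept. Without daf-2 replicates 2 and 4 and the first LRB458 library, which left the daf-2 libraries with the lowest myosin values, 4 members were called lower in the daf-2 mutant, with edgeR log2 fold changes of -1.59 (myo-5), -1.53 (tnc-2), -1.52 (tni-4) and -1.44 (tnt-4). In that fit, with the libraries chosen after seeing the data, 6.71% of the 13804 genes tested were called lower. Without wild-type replicates 2 and 3, tnc-2 had a log2 fold change of 0.0010 and tni-4 one of -0.18.

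In triple mutant larvae against daf-2 larvae, with 0.0925% of all genes called, the 8 log2 fold changes were positive, from 0.13 (pha-4) to 0.54 (ceh-22). The daf-2 libraries are shared by this contrast and the preceding one, and the shared sign is again not 8 separate results. The homeobox gene ceh-22 averaged 5.27 ± 1.18 CPM in the triple mutant and 3.59 ± 1.84 CPM in the daf-2 mutant (SD, n = 4), with an edgeR adjusted p of 0.817. The value depended on the line: without the LRB457 libraries the log2 fold change of myo-1 was -0.20 and that of myo-2 was -0.11, against 0.31 and 0.37 with both lines.

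Between the triple mutant and the irld mutant 18.4% of all genes were called, and the members ranged from -0.66 (myo-5, adjusted p 0.338 by edgeR) to 0.35 (ceh-22). The level of myo-5 was 539 ± 172 CPM in the triple mutant and 851 ± 456 CPM in the irld mutant (SD, n = 4). Between the triple mutant and the wild type 20.4% were called, and the members lay between -0.40 (tni-4) and 0.40 (ceh-22), with 3 of 8 positive. The irld mutant and the wild type differed in 0.00711% of genes, which is 1 gene. Here myo-5 had the largest positive log2 fold change of the members (0.52 ± 0.43 SE), at 851 ± 456 CPM in the irld mutant and 592 ± 138 CPM in the wild type, and tnc-2 the lowest (-0.36 ± 0.43), at 40.2 ± 18.6 CPM in the irld mutant and 51.6 ± 22.5 CPM in the wild type. Without irld replicate 3, the highest library for 7 of the 8 genes, myo-2 had a log2 fold change of -0.02 in place of 0.37.

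Setting the 8 libraries with daf-2(e1370) against the 8 without it, a contrast that called 31.2% of all genes, gave the narrowest intervals. The myosin gene myo-5 came nearest to the threshold, with a log2 fold change of -0.65 ± 0.31 (SE), an unadjusted p of 0.0518 and an edgeR adjusted p of 0.125. Its CPM averaged 459 with the allele and 721 without it. The other members lay between -0.42 (tni-4) and 0.10 (ceh-22). Without daf-2 replicates 2 and 4 and the first LRB458 library 3 members were called lower, myo-5 at -1.07, tnt-4 at -0.76 and tni-4 at -0.75. That fit called 12.8% of the 13804 tested genes lower. The libraries were left out after seeing the data. Daf-2 replicates 2 and 4 held the upper daf-2 values of all 8 members, so this fit is no test of the members. The interaction, which is the effect of daf-2(e1370) in the irld background minus its effect in the wild-type background, was called for 0.064% of genes. Members ranged from -0.14 (myo-1) to 0.73 (tnc-2, 95% interval -0.57 to 2.02), and 4 of 8 were positive. In the authors' deposited table of this interaction, the adjusted p-values of the 8 members lay between 0.784 and 0.996. The signs of that table run the other way, since 92.7% of its 12690 genes had a sign opposite to the one computed here.

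**Figure D2:**
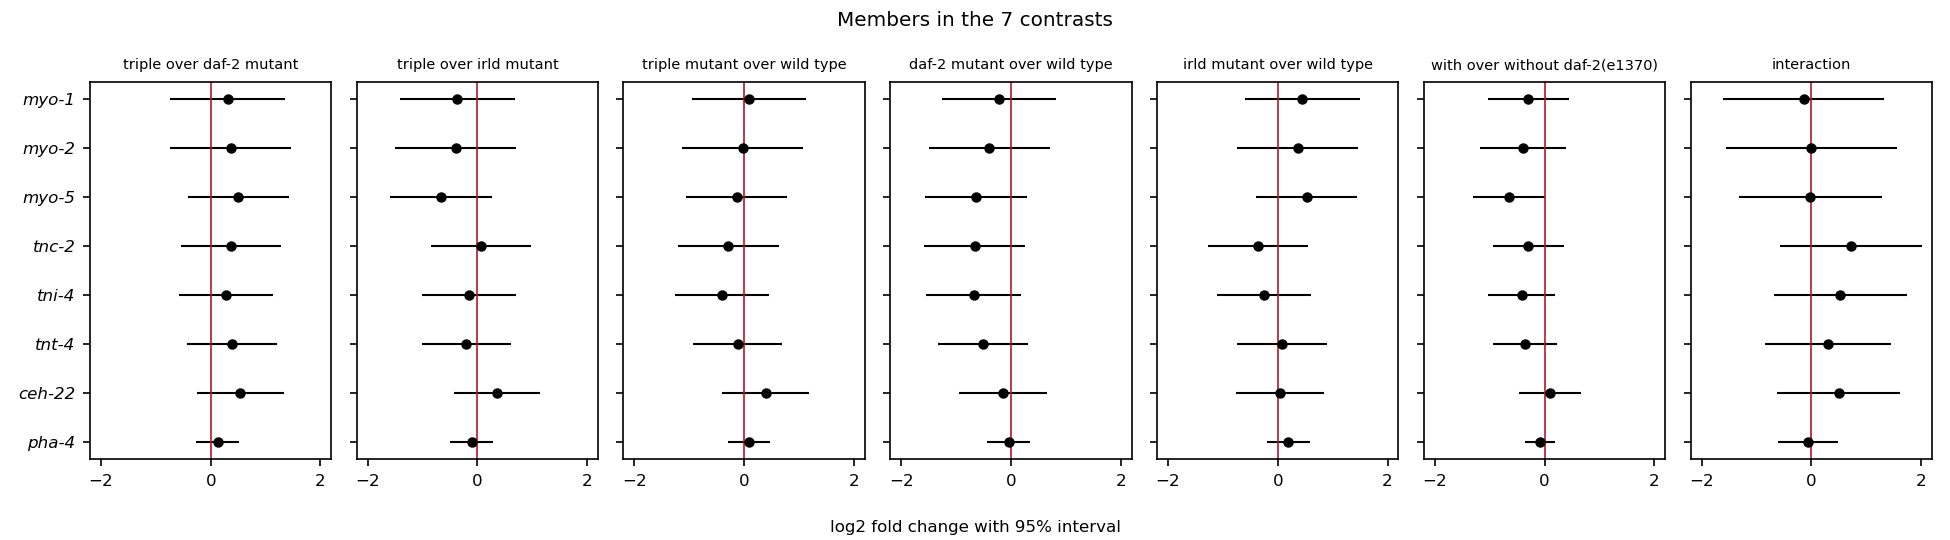
Log2 fold change of each member (points) with its 95% interval (bars) in the 7 contrasts, first-named group over second. The interval of every member includes 0 in every contrast, and those of pha-4 are the narrowest.

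The spread between libraries of the same genotype was large for 7 of the 8 members. The pooled within-group SD of log2 CPM was 0.82 for myo-2, 0.77 for myo-1, 0.67 for myo-5, 0.66 for tnc-2, 0.62 for tni-4, 0.61 for ceh-22 and 0.599 for tnt-4. It was 0.28 for pha-4 and 0.26 for the median of all tested genes. Among genes within 0.5 log2 units of its own level, 98.9% had a smaller SD than myo-2, 98.3% a smaller one than tni-4 and 82.0% a smaller one than pha-4. For ceh-22, whose low counts add sampling error, 88.5% of the genes at its level had a smaller SD.

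**Figure D3:**
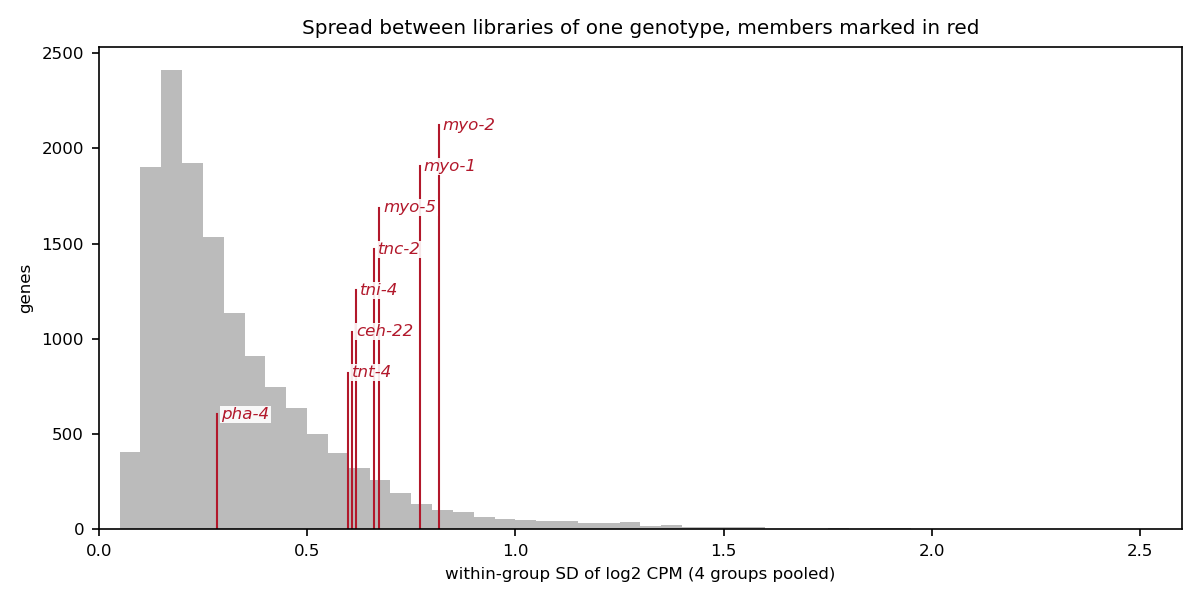
Histogram of the within-group SD of log2 CPM (x axis) over the 14058 genes tested (y axis, number of genes), with the members marked by red lines whose heights carry no value. The marks of 7 members lie between 0.60 and 0.82, and that of pha-4 lies at 0.28.

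The members also deviated together. Over the 16 libraries, the correlation between deviations from the group means was 0.895 to 0.989 among the 3 myosin genes and 0.872 to 0.989 among the 3 troponin genes, and the median over the 28 pairs of members was 0.817. Between ceh-22 and pha-4 it was 0.545, the lowest of all pairs. These correlations are across libraries, with the points of a genotype sharing a strain and each library sharing its depth and scaling over genes. The same library pair held the upper values for 8 of 8 members in the triple mutant (both LRB457 libraries), in the daf-2 mutant (replicates 2 and 4) and in the irld mutant (replicates 3 and 4). In the wild type the upper pair differed between members. Daf-2 replicate 3 was the lowest daf-2 library for 8 of 8 members. In the triple mutant the split followed the lines, with both LRB457 libraries above both LRB458 libraries for all 8 genes. The ratio of the line means, LRB457 over LRB458, was 1.85 for myo-1, 1.79 for myo-2, 1.53 for tni-4, 1.48 for ceh-22 and 1.17 for pha-4. With 2 libraries per line, no member-wise test of the lines was made. The share of all tested genes with the same library orders is not given here. Since the members deviated together, these counts do not stand for 8 separate results.

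As a list, genes of body wall muscle did not follow this pattern. For the 10 body wall counterparts (the heavy chains unc-54 and myo-3, the troponins pat-10, tni-1, unc-27, tni-3, mup-2, tnt-2 and tnt-3, and the myogenic factor hlh-1) the within-group SD of log2 CPM had a median of 0.28. Single genes ran from an SD of 0.10 (unc-27) to one of 0.46 (unc-54, at 5793 to 17273 CPM in the wild type). The correlations between their deviations ran from -0.88 to 0.82, with a median of 0.01. For 9 filament genes that serve both kinds of muscle, among them paramyosin (unc-15) and tropomyosin (lev-11), the median SD was 0.16. Other pharyngeal genes were nearer to the members in spread, with a median SD of 0.73 for 9 gland and marginal cell genes and 0.54 for 7 other regulators, beside 0.64 for the 8 members and 0.31 for 11 genes of excitation and pumping. Several genes of the first pair of lists had low counts, which add sampling error, such as ceh-2 (group means of 0.71 to 0.93 CPM) and phat-1 (0.55 to 2.85 CPM). At higher levels, tbx-2 and ajm-1 had SDs of 0.22 and 0.20, but marg-1 (27.6 to 43.9 CPM) had one of 0.73. The gland and marginal cell genes did not deviate together as a list. Their pair correlations ran from -0.52 to 0.92, with a median of -0.20. The mean log2 CPM of the 6 contractile members spanned 2.63 log2 units over the 16 libraries, and that of the body wall counterparts spanned 0.41. Opposite deviations of single body wall genes cancel in such a mean.

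**Figure D4:**
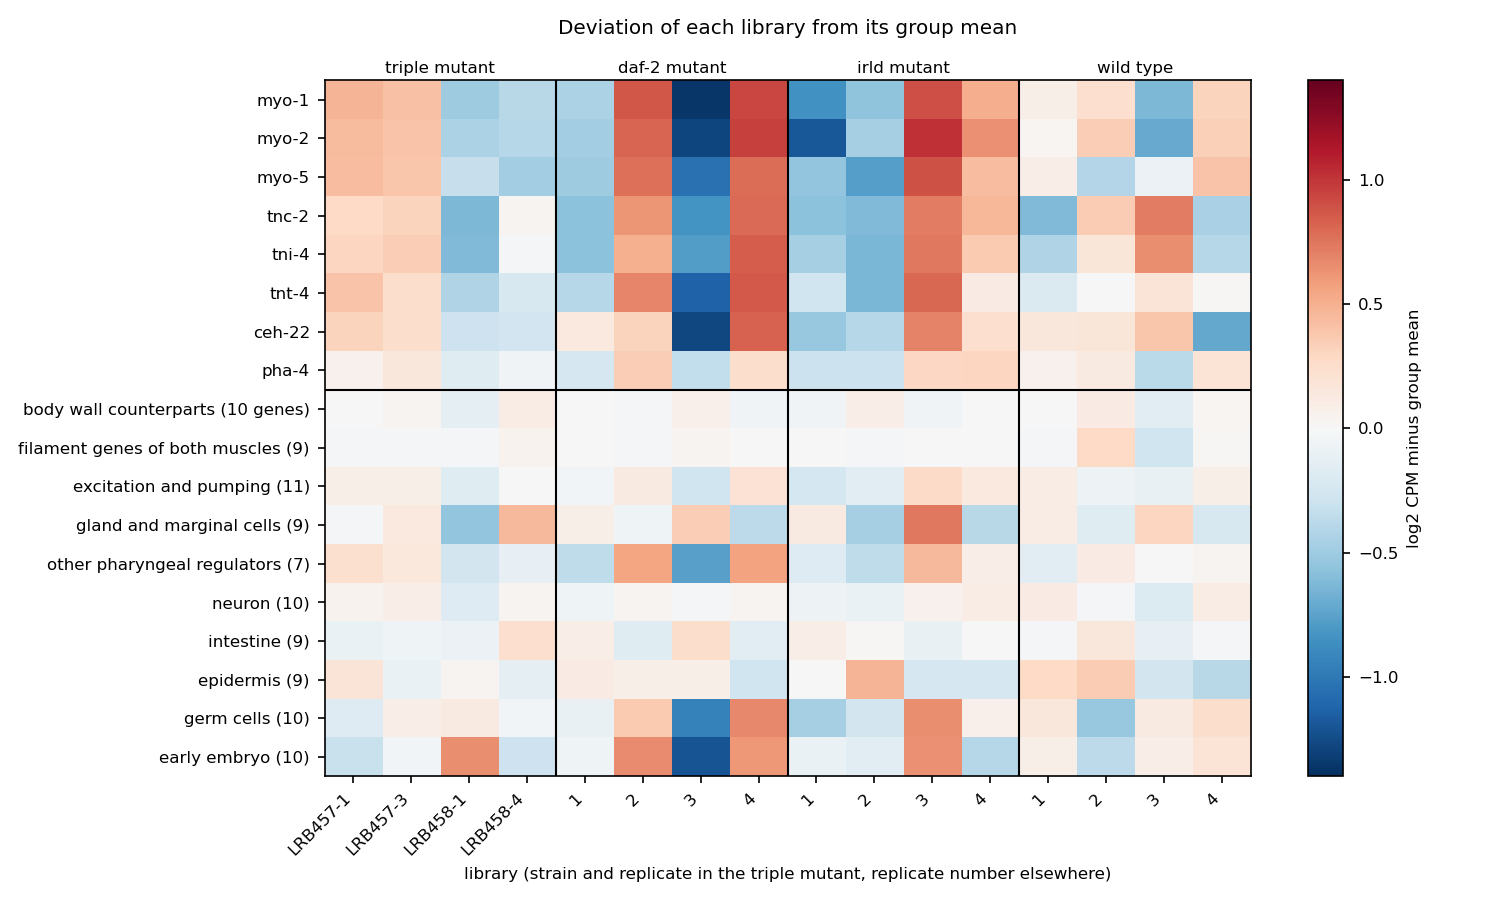
Deviation of each library from its group mean in log2 CPM (colour) for the 8 members and for the mean of 10 marker lists (rows), over the 16 libraries (columns). The members share their pattern in the triple, daf-2 and irld mutants, and the list means for body wall muscle stay near 0. In wild-type replicate 3, myo-1 and myo-2 are low while tnc-2 and tni-4 are high.

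A ratio of pharyngeal to body wall heavy chains compares transcripts of nearly the same length (median exon sum 6334 and 6154 bases) inside 1 library. The summed CPM of myo-1, myo-2 and myo-5 over that of unc-54 and myo-3 was 0.226 and 0.2504 in LRB457, and 0.148 and 0.146 in LRB458. It was 0.0782, 0.2298, 0.0534 and 0.268 in daf-2 replicates 1 to 4, 0.209, 0.133, 0.476 and 0.313 in irld larvae, and 0.185, 0.193, 0.329 and 0.236 in wild-type larvae. The highest library, irld replicate 3, was 8.90-fold above the lowest, daf-2 replicate 3. The matching ratio of the troponins ran from 0.0331 to 0.231 and had the same libraries at its ends. Group means of the heavy chain ratio were 0.193 ± 0.0538 in the triple mutant, 0.157 ± 0.107 in the daf-2 mutant, 0.283 ± 0.148 in the irld mutant and 0.236 ± 0.0660 in the wild type (SD, n = 4), and the ranges of all genotypes overlapped. The ratio also moved with its body wall sum, 6526 CPM in wild-type replicate 3 and 9606 CPM in irld replicate 1. That sum was 14750 to 19222 CPM in the other libraries. Wild-type replicate 3 thus had the highest wild-type ratio with the lowest wild-type sum of pharyngeal heavy chains (2145 CPM).

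**Figure D5:**
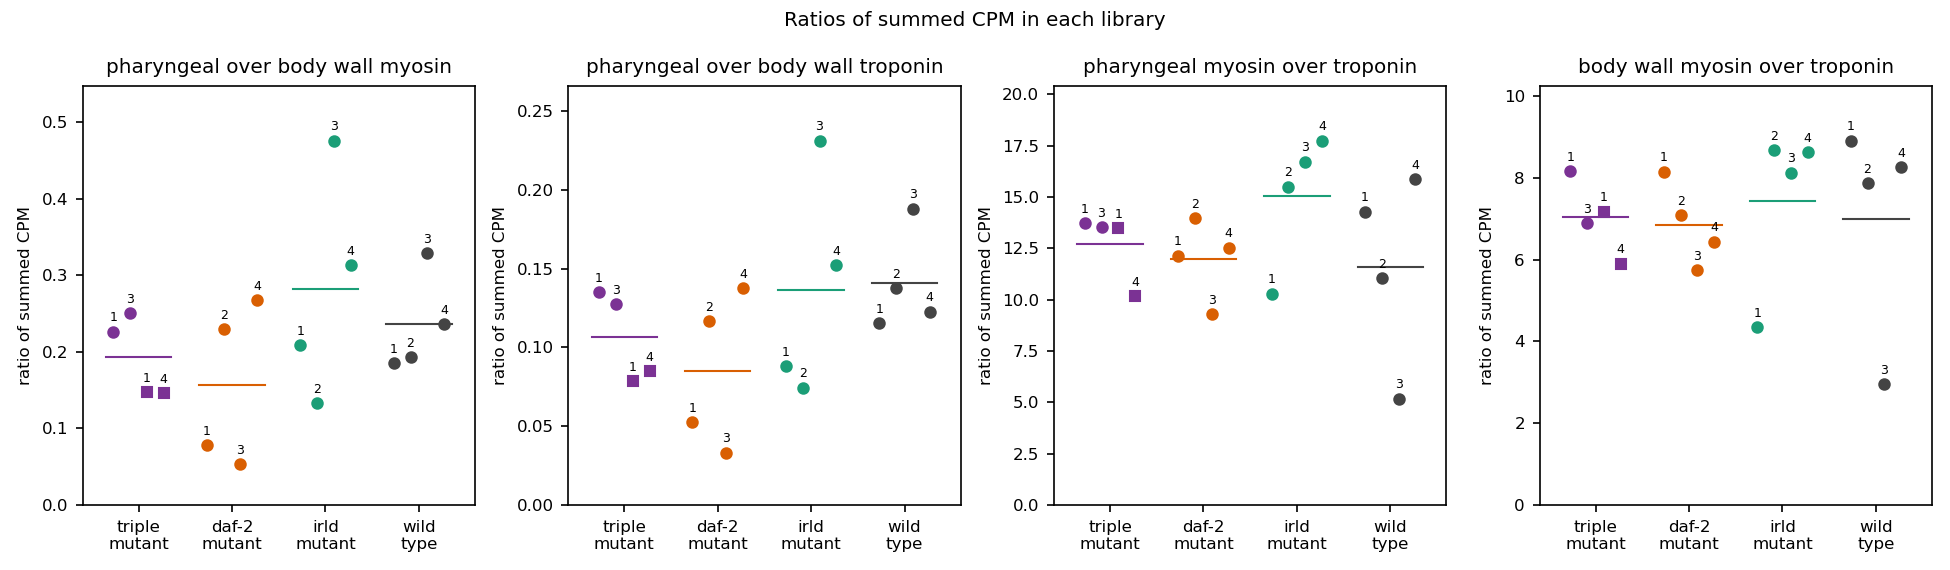
Ratios of summed CPM (y axes from 0) per library, with replicate numbers, group means as lines and squares for LRB458. The pharyngeal to body wall ratios (left pair) are lowest in daf-2 replicate 3 and highest in irld replicate 3, and the myosin to troponin ratios (right pair) are lowest in wild-type replicate 3.

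Wild-type replicate 3, where myo-1 and myo-2 parted from tnc-2 and tni-4, also differed from its group by transcript length class. There myo-5 lay near its wild-type mean, at -0.09 log2 units, and tnt-4 lay at 0.18, beside -0.63 for myo-1 and 0.72 for tnc-2. In wild-type replicate 3 the summed pharyngeal myosin CPM was 5.17 times the summed troponin CPM, against 9.28 to 17.7 times in the other 15 libraries. The same ratio in body wall muscle was 2.96 there, also the lowest of all, against 4.34 to 8.91. Over 9394 genes with at least 5 CPM, the 2241 genes with exons under 1 kb deviated by a median of 0.25 log2 units from the wild-type mean in this library, and the 701 genes with exons over 4 kb by -0.50. Wild-type replicate 2 went the same way by less, at 0.09 for the short genes and -0.22 for the long ones. In wild-type replicates 1 and 4 the signs were opposite, at -0.16 and -0.17 for the short genes and 0.34 and 0.37 for the long ones. The median correlation between myosin and troponin members was 0.736 over all 16 libraries and 0.912 without wild-type replicate 3. Whether this length balance entered the contrasts with the wild type was not tested.

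A few other genes of the pharynx were called where the members were not. In the pooled contrast, which called 31.2% of all tested genes, calls were made for 2 of 7 other regulators, 1 of 11 genes of excitation and pumping and 1 of 9 gland and marginal cell genes. Of 7 other tested regulators of pharyngeal development, peb-1, which encodes a DNA-binding protein that acts on the myo-2 enhancer, fell with daf-2(e1370) in both backgrounds. It stood at 21.7 to 27.6 CPM in the 8 libraries of the triple and daf-2 mutants, and at 39.7 to 73.7 CPM in the 8 of the irld mutant and wild type, without overlap. Its edgeR log2 fold change was -1.37 ± 0.14 (SE) between the triple and irld mutants (adjusted p 7.8e-06) and -1.17 ± 0.14 in daf-2 over wild-type larvae (adjusted p 2.8e-05). The T-box gene tbx-2, needed for pharyngeal muscle from the anterior lineage, was called in the pooled contrast alone, at -0.32 (edgeR adjusted p 0.0273). That call was lost without any of 5 single libraries, LRB457 replicate 3, LRB458 replicate 4, irld replicate 2 and wild-type replicates 1 and 4 (edgeR adjusted p 0.0512 to 0.0602). It was also lost without both LRB457 libraries (edgeR adjusted p 0.104). None of the 7 was called higher in any contrast, and 0 were called in irld against wild-type larvae, in triple mutant against daf-2 larvae or in the interaction. The listed genes ceh-28 and pax-1 had at most 7 counts in a library and were not tested.

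Of 11 genes of excitation and pumping, eat-20 alone was called. It encodes an EGF-repeat protein needed for normal feeding. It stood at 32.9 to 40.6 CPM in libraries with daf-2(e1370) and 16.5 to 27.97 CPM in those without, and rose by 0.79 ± 0.13 (SE) log2 units in the daf-2 mutant over the wild type (edgeR adjusted p 0.000676) and by 0.602 between the triple and irld mutants. The calcium channel gene egl-19, the potassium channel gene exp-2, the acetylcholine receptor gene eat-2 and 7 more did not pass the test in any contrast. Of 9 gland and marginal cell genes, phat-3, of a family named for toxin-related proteins of the pharyngeal glands, fell to 3.43 to 10.7 CPM in libraries with daf-2(e1370), against 19.5 to 53.8 CPM in those without. Its pooled log2 fold change was -2.26 ± 0.27 (SE, edgeR adjusted p 2.3e-05). The other 8 of that list were not called in any contrast.

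Among the body wall counterparts and shared filament genes all calls were upward. In the pooled contrast they numbered 2 of 10 body wall counterparts and 4 of 9 shared filament genes. Of all tested genes, 31.2% were called there in either direction. The troponin I gene unc-27 and the troponin T gene tnt-2 rose by 0.23 and 0.32 log2 units in the pooled contrast (edgeR adjusted p 0.0141 and 0.0291). The call of tnt-2 was lost without LRB458 replicate 4, daf-2 replicate 1 or irld replicate 3 (edgeR adjusted p 0.0533 to 0.0635). It was also lost without the LRB457 libraries (0.0674) or the LRB458 libraries (0.0775). The call of unc-27 was lost without the LRB458 libraries (edgeR adjusted p 0.0786) or with no filter on low counts (0.0528). Without daf-2 replicates 2 and 4 and the first LRB458 library both calls were lost (0.0639 for tnt-2 and 0.0650 for unc-27). The actin genes act-1, act-3 and act-4 rose by 0.57, 0.61 and 0.28, and the myosin light chain gene mlc-1 by 0.27 (adjusted p 0.000409, 0.000561, 0.00711 and 0.0233). The call of mlc-1 was lost without either line of the triple mutant (edgeR adjusted p 0.0647 and 0.0710). It was also lost without daf-2 replicates 2 and 4 and the first LRB458 library (0.0944). The actin genes are near-identical copies, as are mlc-1 and mlc-2, and the authors' mapping kept 1 alignment of reads with at most a pair of places, so the split of reads between them is uncertain. The median log2 fold change in the pooled contrast was -0.32 for the 8 members, 0.16 for the 10 body wall counterparts and 0.26 for the 9 shared filament genes, beside -0.01 for all tested genes. These medians were not compared by a test.

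By the correlation of deviations from group means over the 16 libraries, the 5 genes most like the mean of the 6 contractile members, of 9389 compared, were marg-1 (r = 0.984), idpp-15 (0.978), myo-6 (0.975), ZC455.1 (0.974) and pqn-94 (0.973). Their rank correlations lay between 0.950 and 0.985. At least 0.9 was reached by 115 genes. The level of marg-1, one of the 9 gland and marginal cell genes, was 38.3 ± 12.9 CPM in the triple mutant, 27.6 ± 16.8 CPM in the daf-2 mutant, 43.9 ± 26.9 CPM in the irld mutant and 35.4 ± 2.39 CPM in the wild type (SD, n = 4). That of myo-6, a further myosin heavy chain gene, was 71.0 ± 18.5 CPM in the triple mutant, 59.7 ± 27.8 CPM in the daf-2 mutant, 81.5 ± 34.8 CPM in the irld mutant and 70.5 ± 11.5 CPM in the wild type. None of the 5 was called in any contrast. The regulators had r = 0.853 (pha-4) and 0.832 (ceh-22) with the contractile mean. Most like pha-4 were uig-1 (0.976), alp-1 (0.950) and wsp-1 (0.943), of which alp-1 encodes an ALP/Enigma protein of muscle attachment structures and wsp-1 the WASP actin regulator. Most like ceh-22 were abf-5 (0.939), F35A5.2 (0.920) and F20A1.4 (0.919), at 5.29 to 11.1 CPM.

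Markers of other cells moved with the members in some libraries. The summed CPM of 10 early embryo genes (maternal RNAs such as mex-5, pos-1 and oma-1) ranged from 57.6 to 106 in the triple mutant, from 47.4 to 129.6 in the daf-2 mutant, from 83.7 to 172 in the irld mutant and from 109 to 150.2 in the wild type. Daf-2 replicate 3 was lowest and irld replicate 3 highest for both this sum and the pharyngeal heavy chains. In the triple mutant the 2 did not run together, with 57.6 and 60.2 CPM of early embryo genes in LRB457 and 106 and 59.7 CPM in LRB458. Nor did they in irld replicate 4, the lowest irld library for early embryo genes at 83.7 CPM and the second highest for the pharyngeal heavy chains at 5519 CPM. The 10 germ cell genes summed to 81.97, 114, 68.9 and 137 CPM in daf-2 replicates 1 to 4 and to 51.97, 61.0, 104.1 and 79.7 CPM in irld replicates 1 to 4. In both mutants this put the libraries in the same order as myo-1 and myo-2. The sum lay between 84.7 and 100.2 CPM in the triple mutant and between 49.3 and 91.7 CPM in the wild type, where the order differed from that of both genes (in the wild type it was that of myo-5). Mean log2 CPM spanned 0.42 log2 units over the 16 libraries for 10 neuron genes, 0.75 for 9 intestine genes and 1.11 for 9 epidermis genes, against 2.30 for early embryo genes and 1.62 for germ cell genes. Within the pharynx, it spanned 1.63 for the gland and marginal cell genes, 1.67 for the 7 other regulators and 0.63 for the 11 genes of excitation and pumping. Many early embryo and germ cell genes had low levels, such as puf-3 (group means of 2.86 to 3.11 CPM) and nos-1 (1.30 to 2.18 CPM), and sampling error adds to their spans. The part of these differences in the members' values was not tested.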

How the data were processed

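The deposited counts of 16 libraries were used (unit: counts per gene, unscaled). Per the labels' protocols, RNA was extracted with TRIzol and libraries of polyadenylated RNA were made with NEBNext Ultra II reagents. Per the submitters' processing notes, the authors mapped reads with Bowtie 1.2.2, counted them with HTSeq 0.11.2 and used edgeR 3.24.4. The authors' deposited interaction table gives each gene's log2 fold change, a mean in log2 CPM, the F statistic (a score) and p-values. HTSeq summary entries (40.4% to 42.4% of reads) stayed out of library sizes.

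A minimum of 1 CPM in 4 libraries was required, and genes were tested with edgeR 4.0.16 (R 4.3.3): TMM factors, 1 robust quasi-likelihood fit over the 4 groups and 7 contrasts. Fold changes are first-named over second group. A gene was called at an adjusted p under 0.05. SE is the size of the log2 change divided by the root of F, and 95% intervals use the t quantile of the fit. Log2 CPM uses a prior count of 2. Likeness was computed for genes with a mean of at least 5 CPM. Of 98 list names, 97 matched, and opt-2 did not. The fits were tested on simulated data. No 2 libraries had identical counts.

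Named are the 8 members, called members of the 5 pharyngeal and muscle lists, and the genes most like the members (5 for the contractile mean, 3 for each regulator). Others are named as examples chosen after their values were seen. The members and lists were chosen with earlier results of these data known. Alternatives were DESeq2 size factors, DESeq2 1.42.0 Wald tests, all reads as library size, no filter, edgeR's own filter, only the groups compared, the replicate number as a block, and each line or library left out. Leaving out sets of libraries was added after seeing the data.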

Additional observations from a re-analysis of the deposited data

Results flagged for a closer look

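Of 84 groups of 4 libraries examined, 2 had a library far from the other 3 by Dixon's gap test, and chance flags about 1 in 20 groups. The ratio of pharyngeal myosin to troponin CPM in the triple mutant was lowest in LRB458 replicate 4, at 10.2, against 13.5 to 13.7 in the other 3 libraries. The T-box gene tbx-2 was lowest in wild-type replicate 3, at 18.8 CPM, against 30.1 to 31.7 CPM in the other wild-type libraries. Wild-type replicate 3 is the library in which long transcripts were lowest relative to the group mean, and its part in the value was not tested.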

How the results depend on the processing

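Under every alternative listed above other than the sets of libraries, 0 members were called in each contrast, including every fit without a single library (0 to 0 members). With the replicate block 0 members were called in each of the 7 contrasts. Between libraries of equal replicate number the correlation of deviations ran from -0.46 to 0.31 (median 0.03), with 9 of 24 pairs over 0.1. Between libraries of unequal number it ran from -0.45 to 0.52 (median -0.01), with 18 of 72 pairs over 0.1. Whether a replicate number marks a shared batch cannot be told from these values. Leaving out daf-2 replicates 2 and 4 and the first LRB458 library, chosen after seeing the data, gave 4 members called in daf-2 over wild-type larvae and 3 in the pooled contrast, and leaving out wild-type replicates 2 and 3 gave 0. Signs were less stable than calls: of 1144 values of members under the alternatives, 106 had the opposite sign, in 31 of 56 combinations of member and contrast, and the cause was not tested. The counts over all genes ranged under the alternatives from 1175 to 2673 in daf-2 over wild-type larvae, from 1328 to 3664 between the triple and irld mutants, from 1351 to 3288 between the triple mutant and wild type, from 3209 to 4716 in the pooled contrast, from 6 to 27 between the triple and daf-2 mutants, from 5 to 22 in the interaction and from 0 to 2 between the irld mutant and wild type. Calls of peb-1 and eat-20 held under every alternative run, that of phat-3 between the triple and irld mutants was lost without LRB458 (adjusted p 0.0514), and those of tbx-2, unc-27, tnt-2, mlc-1, act-1, act-3 and act-4 were each lost under at least 1 alternative. Depth limits ceh-22 most, at 19 to 111 counts per library.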
